A study of Mus musculus with 45 samples.

Results

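The poly-A RNA of cultured mouse forelimb buds (strain CD1, gestation day 13) was compared gene by gene between 50 µM and 10 µM bisphenol S (BPS) after 24 h of exposure. There were 5 libraries at each dose, 10 of the 45 in the series. The tables for both doses at 3, 24 and 48 h were joined by gene identifier, and all genes entered. The joined tables listed 34914 genes, 28720 of them in both tables of 24 h, and 16587 had enough reads to be tested. The remaining groups used here are DMSO, the vehicle, at 24 h, and 10 and 50 µM BPS at 3 and 48 h, again with 5 libraries each. Limbs were pooled and cultured with both sexes together, and the labels do not say whether the libraries of a group came from separate litters or culture bottles, so the p-values cover the variation from library to library, part of which may be technical. The strain entries of the 5 libraries of 50 µM at 48 h differ from CD1, while the series text names CD1 alone.

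Manufacturers use BPS as a substitute for bisphenol A. Limb skeletons form first as cartilage, which bone then replaces (endochondral ossification, named in the title of the series). Cells make cholesterol from acetyl-CoA through mevalonate, squalene and lanosterol. The enzymes of this route and those of fatty acid synthesis are targets of the SREBP transcription factors, which leave the endoplasmic reticulum (ER) for the nucleus when ER sterol is low. INSIG proteins hold them in the ER. Sterols also modify hedgehog proteins and act on the hedgehog pathway, which directs growth of limb cartilage.

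Reads assigned to genes ran from 15.2 to 23.1 M per library over the 10 libraries. A level is a CPM value (reads of a gene scaled to the library's depth) ± SD (n = 5), and differences are the log2 value at 50 µM minus that at 10 µM with its standard error (SE). Limb and cartilage genes matched the tissue label. At 10 µM the forelimb factor gene Tbx5 stood at 304 CPM and the hindlimb factor gene Pitx1 at 4.34 CPM, while Col2a1, the main collagen of cartilage, stood at 6149 ± 500.4 CPM. Replicates of a dose differed by more than sampling noise.

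One pair of libraries went against the labelled mix of sexes. In 50 µM replicate 1 the summed level of 4 Y-linked genes was 0 CPM and Xist, the RNA of the inactive X chromosome, was highest of the 10 libraries at 2042 CPM. In 10 µM replicate 1 the Y-linked sum was highest at 278 CPM and Xist stood at 1.12 CPM. The other 8 libraries held both, with Y-linked sums from 136 to 258 CPM and Xist from 559 to 1296 CPM. Blocked counts of the main lists are therefore given with and without replicate 1, and other results where stated.

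**Figure D1:**
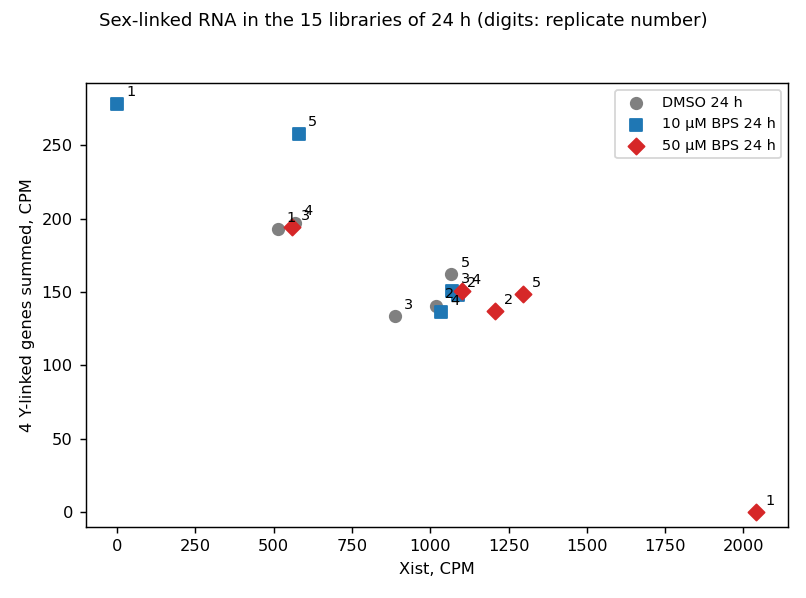
Summed CPM of 4 Y-linked genes (y axis) against Xist CPM (x axis) in the 15 libraries of 24 h, with digits for the replicate number and colours for DMSO, 10 µM and 50 µM. The libraries of 50 µM replicate 1 (0 CPM Y-linked) and 10 µM replicate 1 (1.12 CPM Xist) lie at opposite corners, and the others lie between.

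Without a replicate block, which was the main test, no gene passed between the doses: edgeR's quasi-likelihood test called 0 of 16587 genes (0%) at an adjusted p below 0.05, with 923 at an unadjusted p below 0.05. By limma-voom the count was 0 and by DESeq2 it was 36, 23 higher and 13 lower at 50 µM. The count without 10 µM replicate 3 was 12, without 10 µM replicate 5 it was 10, without 50 µM replicate 5 it was 5, and without replicate 2 of either dose it was 2. With the replicate number as a block, an alternative in which libraries are compared within equal numbers, edgeR called 181 genes, 98 higher (0.591%) and 83 lower (0.5%) at 50 µM. The labels do not say what a replicate number marks, and 1 of the 5 numbers fell short of the likeness between its libraries that was required before treating the numbers as pairs. Values with the block are therefore conditional on the numbers marking something shared, and are named as such throughout.

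The differences were small. Among the genes called with the block, the median was 0.22 for those higher and -0.27 for those lower, and 1 gene of the 181 differed by at least 2-fold. In 92 of the 98 genes called higher the 50 µM library lay above the 10 µM library of the same number in 5 of 5 cases, where 5.51% of all genes tested did. In 78 of the 83 called lower it lay below in 5 of 5, where 5.99% of all genes did. The 5 libraries of 50 µM lay wholly above those of 10 µM for 25 of the 98 and wholly below for 22 of the 83, and over all genes tested the shares were 0.537% and 0.639%. The call itself used these libraries, so these counts describe the called genes and do not test them.

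Enzymes of cholesterol synthesis were the clearest group on the higher side. Of 21 enzymes tested on the route from acetyl-CoA to cholesterol, 20 had a difference above 0, with a median of 0.31, and 18 were higher at 50 µM in 5 of 5 equal numbers. Over all genes tested the median was 0.00 and 8376 of 16587 lay above 0. Without the block 0 of the 21 passed and 16 had an unadjusted p below 0.05. With the block 13 of 21 were called higher and 0 lower, and without replicate 1 the blocked count was again 13. Without replicate 2, 3, 4 or 5 it was 10, 10, 9 and 11. With the Y-linked level added to the block it was 10.

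In the first stretch of the route, from acetyl-CoA to squalene, 5 of 10 enzymes were called with the block (4 without replicate 1), and the median difference was 0.29. Hmgcs1 makes HMG-CoA, the precursor of mevalonate (ENSMUSG00000093930, chromosome 13, 119690379 to 119708260, plus strand). Its level was 196, 196, 207, 208 and 239.8 CPM in 50 µM replicates 1 to 5 and 160.4, 150.1, 171, 154 and 174 CPM in 10 µM replicates 1 to 5. The lowest library at 50 µM thus lay above the highest at 10 µM, and DMSO averaged 163 ± 16.1 CPM. The difference was 0.37 ± 0.061 (edgeR adjusted p = 0.0511 without the block and 3.96e-07 with it).

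Mvd, which decarboxylates mevalonate diphosphate, stood at 63.4 ± 6.98 against 49.3 ± 3.77 CPM, a difference of 0.37 ± 0.070 (adjusted p = 0.0754 without and 4.73e-05 with the block). Idi1, the isopentenyl isomerase, and Fdft1, the squalene synthase, were called with the block too, at 0.32 ± 0.111 and 0.17 ± 0.056. Without replicate 1 Idi1 was no longer called with the block (edgeR adjusted p = 0.0972). Not called in either fit were Fdps at 0.38 ± 0.151, Acat2 at 0.27 ± 0.091, Pmvk at 0.13 ± 0.122, Mvk at 0.12 ± 0.061 and Ggps1 at 0.02 ± 0.065. Ggps1 makes geranylgeranyl diphosphate, a branch that leaves the route before squalene.

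From squalene to cholesterol 8 of 11 enzymes were called with the block (9 without replicate 1), with a median of 0.31. Dhcr7 carries out the last reduction to cholesterol (chromosome 7, 143823145 to 143848410, plus strand). It stood at 81.7, 72.8, 86.1, 82.4 and 90.5 CPM in 50 µM replicates 1 to 5 and at 66.1, 56, 65.8, 68.1 and 63.4 CPM in those of 10 µM. The doses did not overlap, and the difference was 0.37 ± 0.064 (adjusted p = 0.055 without and 1.63e-05 with the block). Msmo1, the sterol methyl oxidase, stood at 77.5 ± 8.07 against 58.9 ± 6.71 CPM, a difference of 0.40 ± 0.081 (adjusted p = 0.121 without and 5.84e-06 with the block). Its lowest library at 50 µM (69.2 CPM) lay just above its highest at 10 µM (68.2 CPM).

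Sqle, the squalene epoxidase, stood at 113 ± 6.06 against 93.4 ± 10 CPM, with overlap, a difference of 0.27 ± 0.065 and an adjusted p of 0.228 without and 0.000222 with the block. Nsdhl (0.33 ± 0.075), Tm7sf2 (0.33 ± 0.087), Lss, the lanosterol synthase (0.31 ± 0.066), and Hsd17b7 (0.31 ± 0.099), all enzymes of these steps, were called with the block only. Cyp51, the lanosterol demethylase, at 0.27 ± 0.083 and Sc5d at 0.17 ± 0.090 were not called in either fit. Ebp, the sterol isomerase, stood at 12.6 ± 0.677 against 12.7 ± 1.03 CPM, and was the 1 enzyme of the 21 with a difference below 0 (-0.02 ± 0.090).

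SREBP regulators and genes of LDL uptake split. With the block 5 of 14 were called higher (2 without replicate 1), and the list's median was 0.10. Insig1, the sterol-sensing anchor of the SREBPs (chromosome 5, 28071363 to 28078662, plus strand), stood at 74.9, 72.4, 83.9, 78.7 and 81.6 CPM in 50 µM replicates 1 to 5 against 64.6, 54.2, 64.3, 60.2 and 68.5 CPM in those of 10 µM. The doses did not overlap, and the difference was 0.33 ± 0.064 (adjusted p = 0.0754 without and 0.000123 with the block). Stard4, a sterol carrier (0.20 ± 0.065), Srebf2 (0.16 ± 0.051) and Srebf1 (0.16 ± 0.082), which encode the SREBPs, were called with the block only. Scap, the sterol sensor that escorts SREBPs, and Mbtps1, a protease that cleaves them, stood at -0.07 ± 0.051 and -0.06 ± 0.047, called in neither fit.

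Promoters of 4 genes whose doses did not overlap are shown as examples, since these genes lay higher together. They were chosen after their values were seen, and Dhcr7 and Nsdhl, which did not overlap either, are not shown. RefSeq promoter windows of GRCm38.p6 (250 bases before to 50 after a start) were held for 16 of the 21 enzymes. CCAAT, the box bound by NF-Y, was searched on both strands and was found in 15 of these 16 genes, and in 41.1% of all genes with a window. In the ER chaperone genes, a list with no call, it was found in 14 of 15 (93.3%). TCACNCCAC, a form of the sterol regulatory element, also on both strands, was found in 1 of 16 and in 1.44% of all. These motifs have no overlap built in, and a match describes letters, not binding. The 250 bases before the start follow, 5′ to 3′ on the gene's strand, with every match to either motif, on either strand, in capitals.
Hmgcs1, chr13:119690101-119690350, plus strand: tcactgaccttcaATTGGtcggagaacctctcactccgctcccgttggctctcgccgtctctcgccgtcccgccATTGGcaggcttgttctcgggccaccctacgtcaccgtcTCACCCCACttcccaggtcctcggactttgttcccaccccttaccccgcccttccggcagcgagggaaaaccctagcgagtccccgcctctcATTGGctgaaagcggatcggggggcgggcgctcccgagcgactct
Msmo1, chr8:64733579-64733828, minus strand: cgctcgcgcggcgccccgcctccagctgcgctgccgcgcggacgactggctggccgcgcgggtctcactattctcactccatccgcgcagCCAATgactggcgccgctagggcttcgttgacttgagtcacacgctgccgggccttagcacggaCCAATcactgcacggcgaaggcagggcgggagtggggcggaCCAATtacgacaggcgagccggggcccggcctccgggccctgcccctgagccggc
Mvd, chr8:122443423-122443672, minus strand: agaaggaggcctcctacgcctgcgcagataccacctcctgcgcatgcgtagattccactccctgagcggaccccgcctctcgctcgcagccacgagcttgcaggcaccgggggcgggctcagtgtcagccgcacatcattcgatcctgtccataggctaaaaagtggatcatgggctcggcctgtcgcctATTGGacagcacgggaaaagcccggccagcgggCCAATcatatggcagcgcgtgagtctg
Insig1, chr5:28071162-28071411, plus strand: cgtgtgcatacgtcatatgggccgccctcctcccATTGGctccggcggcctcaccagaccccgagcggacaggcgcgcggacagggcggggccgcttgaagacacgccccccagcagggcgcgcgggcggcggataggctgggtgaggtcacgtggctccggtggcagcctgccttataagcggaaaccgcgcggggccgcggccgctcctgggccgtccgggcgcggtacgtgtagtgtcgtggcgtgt

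Fatty acid genes lay on the same side as the sterol genes. In the list of synthesis and desaturation 12 of 13 tested genes lay above 0, with a median of 0.18, and 7 were called higher with the block (7 without replicate 1). Scd1, which desaturates stearate to oleate (chromosome 19, 44394451 to 44407709, minus strand), had the smallest p with the block of all genes. It stood at 127, 114, 144, 142 and 139 CPM in 50 µM replicates 1 to 5 and at 97.7, 73.9, 105.5, 96.2 and 85.3 CPM in those of 10 µM. The highest library at 10 µM lay below the lowest at 50 µM, and DMSO averaged 87 ± 11.5 CPM. The difference was 0.54 ± 0.085 (adjusted p = 0.055 without and 1.75e-08 with the block).

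Its relative Scd2, far more abundant, stood at 1788 ± 95.1 against 1509 ± 82.6 CPM without overlap, a difference of 0.25 ± 0.056 (adjusted p = 0.17 without and 0.000683 with the block). Fasn, the fatty acid synthase, stood at 400.1 ± 29.4 against 347 ± 32.1 CPM, a difference of 0.21 ± 0.061 (adjusted p = 0.526 without and 0.000833 with the block). Acaca and Acly, which supply its substrate, stood at 0.22 ± 0.059 and 0.18 ± 0.054, and the elongase gene Elovl6 and the desaturase gene Fads2 at 0.20 ± 0.058 each. These 4 were called with the block only. Elovl1 was the 1 gene of the list below 0, at -0.16 ± 0.065.

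**Figure D2:**
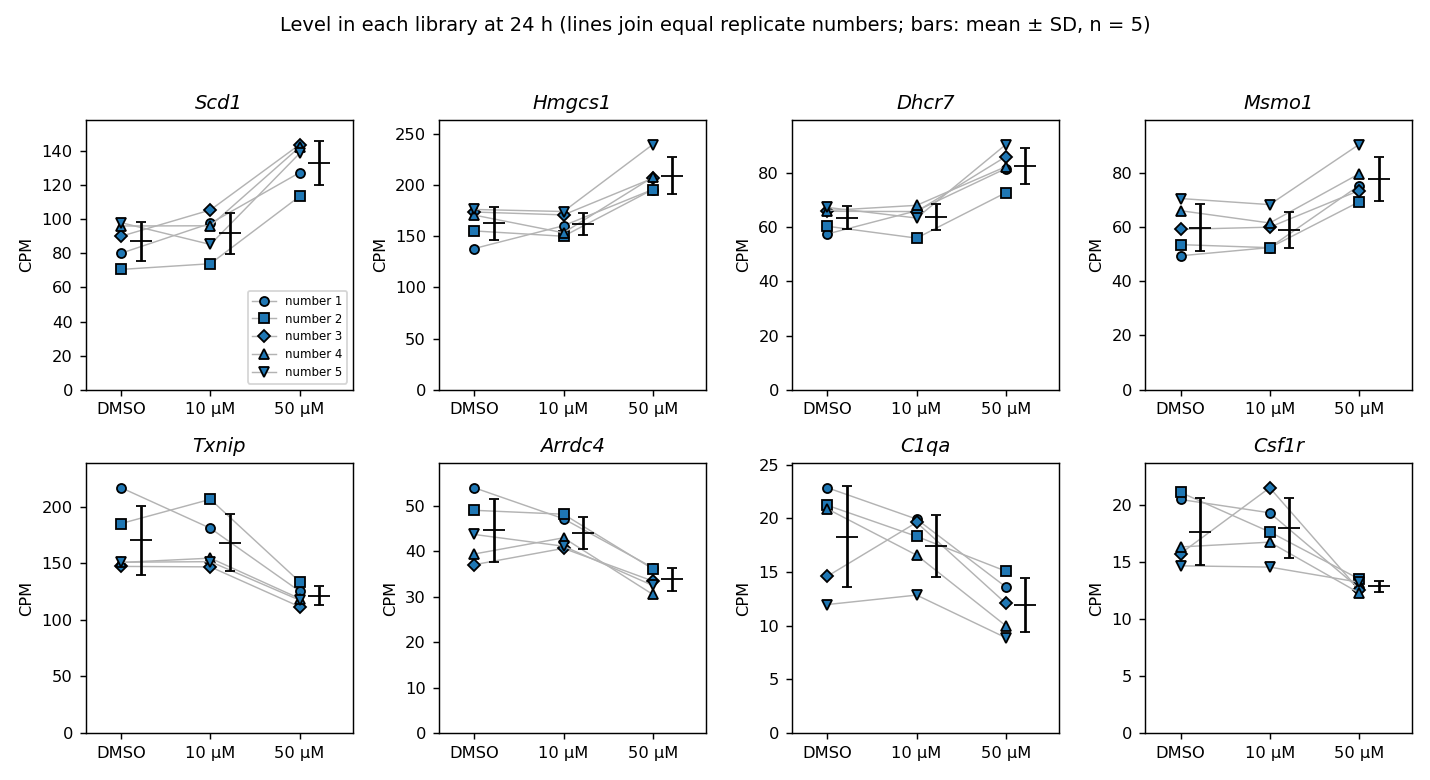
CPM of 8 genes (y axis, linear from 0) in each library of DMSO, 10 µM and 50 µM BPS at 24 h, with grey lines joining equal replicate numbers and black bars for the mean ± SD (n = 5). In the upper row the 50 µM libraries of Scd1, Hmgcs1, Dhcr7 and Msmo1 lie above all 10 µM libraries, and in the lower row those of Txnip, Arrdc4 and Csf1r lie below them, while C1qa overlaps.

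Lipid storage genes lay the other way. Of 20 tested genes of lipid droplets and PPAR targets 17 had a difference below 0 (median -0.10), and 3 were called lower with the block (1 without replicate 1). Cd36, a fatty acid transporter, stood at 18.4 ± 2.44 against 24.5 ± 0.969 CPM without overlap, a difference of -0.41 ± 0.088 (adjusted p = 0.13 without and 0.00206 with the block). Plin2, the coat protein of lipid droplets, stood at -0.22 ± 0.064 and Fabp5, a fatty acid binding protein, at -0.20 ± 0.147. Without replicate 1 Fabp5 was no longer called with the block (edgeR adjusted p = 0.246). Reads of Fabp5 can be shared with copies elsewhere in the genome, so its value is uncertain.

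Genes of the arrestin-domain family lay on both sides. Txnip encodes a thioredoxin-binding arrestin that limits glucose uptake (chromosome 3, 96557957 to 96561883, plus strand). It stood at 125, 134, 111.5, 119 and 117 CPM in 50 µM replicates 1 to 5 and at 181, 206, 147, 154 and 151 CPM in those of 10 µM. All 50 µM libraries lay below those of 10 µM, and replicates 1 and 2 were highest at both doses. The difference was -0.47 ± 0.089 (adjusted p = 0.121 without and 5.23e-08 with the block). Arrdc4, a related gene, stood at 33.8 ± 2.5 against 44 ± 3.46 CPM without overlap, a difference of -0.38 ± 0.071 (adjusted p = 0.0754 without and 0.000224 with the block). Arrdc3 stood at 0.17 ± 0.075 and was called higher with the block, as 1 of 7 in the list against 2 lower.

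Macrophage genes were the main cell type markers on the lower side. Of 18 macrophage and leukocyte genes 17 had a difference below 0, with a median of -0.33, and the summed level of the 18 ran from 151 to 185 CPM at 50 µM and from 182 to 228 CPM at 10 µM. No member passed without the block, and 6 were called lower with it (3 without replicate 1). Csf1r, the receptor of the macrophage growth factor (chromosome 18, 61105572 to 61132149, plus strand), stood at 12.7, 13.5, 12.6, 12.3 and 13.2 CPM in 50 µM replicates 1 to 5 and at 19.3, 17.7, 21.5, 16.8 and 14.6 CPM in those of 10 µM. The 50 µM libraries lay close together and below all those of 10 µM, a difference of -0.48 ± 0.097 (adjusted p = 0.111 without and 0.00424 with the block).

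C1qa and C1qb, chains of the complement factor that tissue macrophages make, stood at 11.9 ± 2.54 against 17.5 ± 2.9 CPM and at 13.3 ± 1.43 against 19.1 ± 3.72 CPM. Their differences were -0.55 ± 0.141 and -0.52 ± 0.119 (adjusted p = 0.381 and 0.176 without, 0.000598 and 0.0015 with the block). C1qc (-0.41 ± 0.175), the chemokine receptor gene Cx3cr1 (-0.59 ± 0.184) and the lysozyme gene Lyz2 (-0.30 ± 0.089) were called with the block only. Without replicate 1 Cx3cr1 was no longer called with the block (edgeR adjusted p = 0.125). Ptprc, the pan-leukocyte surface gene, stood at 2.59 ± 0.429 against 2.53 ± 0.581 CPM, and Adgre1, a macrophage receptor, at 6.34 ± 1.8 against 8.11 ± 1.55 CPM. Neither was called. Outside the list, Msr1, a macrophage scavenger receptor, stood at 1.82 ± 0.493 against 3.23 ± 0.74 CPM without overlap and Rac2, a leukocyte GTPase, at 4.28 ± 0.754 against 6.68 ± 1.18 CPM, both called with the block only. Without replicate 1 neither was called (blocked adjusted p = 0.143 and 0.177). In whole limbs fewer macrophages and less RNA per macrophage cannot be told apart.

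The marker lists of other cell types gave no call. Single genes outside these lists, among them Lgals7 and Myot, were called with the block and are given below. Of 17 endothelial genes 16 lay below 0 (median -0.11), of 16 interferon-stimulated genes 12 did (median -0.23), and of 19 epidermal genes 14 did (median -0.13), with 0 called in either fit. The epidermal median was -0.04 without replicate 5, and with the block it was -0.16 with all libraries and -0.20 without replicate 1. The endothelial median was -0.18 without replicate 5. The summed epidermal level ran from 249 to 465 CPM at 50 µM and from 295 to 462 CPM at 10 µM. Osteoclast, erythroid, muscle and Schwann cell lists had medians of -0.02, 0.04, -0.02 and 0.01 and no call in either fit. Nuclear retained RNAs had a median of 0.06, with a summed level from 4989 to 6219 CPM at 50 µM and from 3862 to 5471 CPM at 10 µM. The lowest sum at 10 µM was in replicate 1, where Xist stood at 1.12 CPM, against 2042 CPM in 50 µM replicate 1. Neither the part of sex makeup in these sums nor the part of nuclear retained RNAs in the results was tested. The median of the 12 tested mitochondrially encoded genes was 0.19, with the block as well, and 0.08 with the block without replicate 1. Of these mt-Co1 was called higher with the block, at 6352 ± 1087 against 5368 ± 663 CPM, with the highest library in replicate 5 at both doses.

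**Figure D3:**
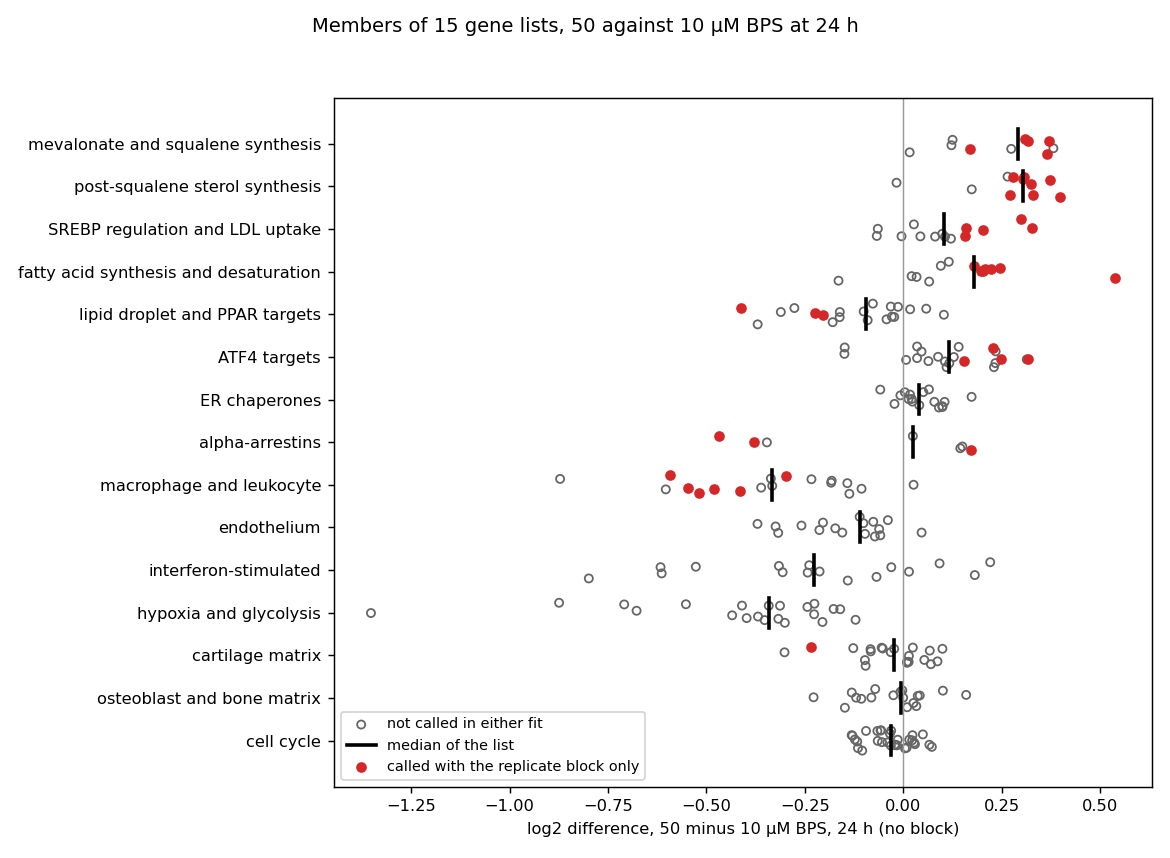
Log2 difference of 50 minus 10 µM BPS at 24 h without the block (x axis) for each tested member of 15 gene lists (y axis), with red points for genes called with the replicate block only, open points for genes called in neither fit and black bars for medians. The sterol enzyme lists lie right of 0 (medians 0.29 and 0.31), the macrophage list left (-0.33), and the cartilage, osteoblast and cell cycle lists near 0.

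Stress genes of the ER were not called. Of 17 ER chaperone genes 14 lay above 0, with a median of 0.04, and 0 were called in either fit. Hspa5, the main ER chaperone, stood at 764 ± 32.4 against 713 ± 21.4 CPM, a difference of 0.10 ± 0.049 (adjusted p = 0.894 without and 0.266 with the block). Targets of ATF4, the factor of the amino acid response, lay above 0 in 19 of 21 cases (median 0.12), and 4 were called higher with the block (1 without replicate 1). Mthfd2, a mitochondrial folate enzyme, stood at 75.1 ± 7.7 against 60.3 ± 2.99 CPM without overlap, a difference of 0.32 ± 0.066 (adjusted p = 0.121 without and 0.000598 with the block). Asns, the asparagine synthetase, at 0.25 ± 0.099, the amino acid transporter gene Slc7a5 at 0.23 ± 0.061 and the tRNA synthetase gene Aars at 0.15 ± 0.048 completed the 4. Without replicate 1 Asns was no longer called with the block (edgeR adjusted p = 0.12). Ddit3, the stress factor CHOP, stood at 18.6 ± 1.91 against 18.5 ± 2.27 CPM, called in neither fit.

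All 21 genes of hypoxia and glycolysis lay below 0, with a median of -0.34, yet 0 were called in either fit. Their summed level ran from 2609 to 3480 CPM at 50 µM and from 2526 to 5107 CPM at 10 µM. The highest sums at 10 µM were in replicates 2 (5107 CPM) and 1 (4186 CPM), and the groups overlapped throughout. With the block the median was -0.28 with all libraries and -0.15 without both libraries of number 1, and without the block it was -0.44 without those of number 5. Hormone and xenobiotic receptor genes often studied with bisphenols were looked at too. Esr1 and Esr2, the estrogen receptors, stood at 0.895 ± 0.259 against 1.01 ± 0.266 CPM and at 0.914 ± 0.539 against 0.546 ± 0.239 CPM. Cyp1a1, which the aryl hydrocarbon receptor induces, was at 2.79 ± 0.518 against 2.9 ± 0.863 CPM. Cyp1b1, another target, stood at 28.6 ± 2.79 against 23.5 ± 3.34 CPM and was called higher with the block (adjusted p = 0.0422, and 0.24 without replicate 1).

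Cartilage and bone genes differed little. Of 21 cartilage matrix genes 10 lay above and 11 below 0 (median -0.02), and of 18 osteoblast and bone matrix genes 8 lay above and 10 below (median -0.00). Col2a1 stood at 6202 ± 415 against 6149 ± 500.4 CPM, a difference of 0.01 ± 0.065, and Acan, the proteoglycan aggrecan, at 409.9 ± 45 against 407.5 ± 59.3 CPM, a difference of 0.01 ± 0.099. Sox9, the chondrocyte factor, stood at 512 ± 22.2 against 487.5 ± 13.4 CPM (0.07 ± 0.048). Among bone genes, Runx2 stood at 0.04 ± 0.055, Sp7 at 0.00 ± 0.102, Col1a1 at -0.02 ± 0.073 and Ibsp at -0.23 ± 0.410. None of these 7 was called in either fit. Comp, a cartilage matrix protein, was the 1 gene of its list called with the block, at 90.1 ± 15.1 against 106.1 ± 14.2 CPM with overlap (-0.23 ± 0.120, adjusted p = 0.921 without and 0.000909 with the block).

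Col10a1, the collagen of hypertrophic chondrocytes, stood at 37.7, 15.1, 10.4, 12.5 and 11.2 CPM in 50 µM replicates 1 to 5 and at 43.1, 17.4, 15.7, 29.3 and 22.1 CPM in those of 10 µM. Replicate 1 was highest at both doses, and each 50 µM library lay below its number at 10 µM. The difference of -0.54 ± 0.453 was not called with all libraries (adjusted p = 0.96 without and 0.239 with the block), but without both libraries of number 1 it was called lower with the block (adjusted p = 0.0239). Ihh, the hedgehog ligand of prehypertrophic cartilage, stood at 53.7 ± 7.49 against 46 ± 4.37 CPM, a difference of 0.23 ± 0.086 (adjusted p = 0.786 without and 0.0178 with the block, 0.143 without replicate 1). Ptch1, the hedgehog receptor and target, stood at 269 ± 17.9 against 251 ± 14.1 CPM, called in neither fit (0.10 ± 0.057).

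Signalling genes of the limb passed singly, with the block only. Higher at 50 µM were Fgfr3, a receptor that restrains cartilage growth (0.20 ± 0.058), Gdf5, a joint growth factor (0.23 ± 0.076), Dkk3, of the Dickkopf family (0.24 ± 0.062), Cyp26b1, which breaks down retinoic acid (0.19 ± 0.068), Smad9, a BMP signal transducer (0.34 ± 0.098), and Skil, a repressor of SMAD signalling (0.19 ± 0.068). The protease gene Adamts9 and the inhibitor gene Timp3 stood at 0.25 ± 0.055 and 0.17 ± 0.051. Lower were Chrd, the BMP antagonist chordin (-0.27 ± 0.078), Osr2, a joint transcription factor (-0.23 ± 0.062), Igfbp3, a binding protein of insulin-like growth factors (-0.17 ± 0.067), and Klf2, a flow-responsive factor (-0.43 ± 0.10). Tfap2a and Tfap2b, factors of the limb ectoderm and neural crest, stood at -0.55 ± 0.173 and -0.25 ± 0.166. Without replicate 1 the blocked adjusted p rose above the threshold for Smad9 (0.224), Skil (0.126), Timp3 (0.0787), Osr2 (0.168), Igfbp3 (0.0984) and Tfap2b (0.126).

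Other genes were named for their small p without the block, and did not pass in that fit. Cpm, a membrane carboxypeptidase, stood at 83.8, 85.9, 84.7, 86 and 87.7 CPM in 50 µM replicates 1 to 5 and at 69.4, 73, 68.3, 69.9 and 63.8 CPM in those of 10 µM. The doses lay apart with little spread, a difference of 0.31 ± 0.051 (adjusted p = 0.0511 without and 0.000123 with the block). Odc1, the rate-limiting enzyme of polyamine synthesis, stood at 178 ± 15.1 against 142 ± 9.25 CPM (0.32 ± 0.061, adjusted p = 0.0754 without the block). Bmper, a secreted BMP regulator, stood at 44.9 ± 2.74 against 36.4 ± 2.43 CPM (0.31 ± 0.064, adjusted p = 0.121 without and 0.00154 with the block). Mettl17, a mitochondrial ribosome assembly factor, stood at 25.4 ± 1.06 against 32.9 ± 2.24 CPM (-0.37 ± 0.071, adjusted p = 0.0754 without and 0.00142 with the block). None of these 4 overlapped between the doses, where 0.537% of all genes tested lay wholly higher and 0.639% wholly lower. Their small p came from these same libraries, so the lack of overlap describes them and does not test them.

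Further genes were named for the size of their difference among the blocked calls. Stfa3, a stefin, stood at 0.788 ± 0.462 against 2.19 ± 1.56 CPM (-1.40 ± 0.325 with the block, adjusted p = 0.0311), but its reads can be shared with near-identical stefin genes and its value is uncertain. Plch2 at 2.07 ± 0.898 against 3.66 ± 0.426 CPM and Lgals7, an epithelial galectin, at 2.52 ± 0.919 against 4.16 ± 1.69 CPM were lower with the block as well. So were Plau, the urokinase (-0.59 ± 0.131), Foxq1 (-0.56 ± 0.163), Lrrc75b (-0.55 ± 0.156) and Gng11 (-0.47 ± 0.129). On the higher side stood Pdzrn4 at 4.47 ± 0.937 against 2.81 ± 0.695 CPM (0.66 ± 0.195), Myot, a sarcomere protein (0.41 ± 0.101), Aldh1l2, a mitochondrial folate enzyme (0.39 ± 0.090), Gpnmb, a lysosomal glycoprotein (0.38 ± 0.107), the growth regulator Mycn (0.37 ± 0.105) and Eya2 (0.33 ± 0.070). Of these 13 genes, Plau, Lrrc75b, Gpnmb and Eya2 were still called with the block without replicate 1.

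Each dose was set beside DMSO at 24 h, in comparisons that share libraries with the one above. At 10 µM edgeR called 0 of 16529 genes without the block and 0 with it (0%), with 494 and 1311 at an unadjusted p below 0.05, and DESeq2 and limma-voom called 0. At 50 µM it called 41 higher (0.248%) and 21 lower (0.127%) without the block. That count of 62 was 315 without DMSO replicate 5, 105 without 50 µM replicate 1 and between 2 and 21 without each of 50 µM replicates 2 to 4 or DMSO replicates 1 to 4. With the block 621 were higher (3.76%) and 328 lower (1.99%). Numbers 2 and 4 of 50 µM and DMSO fell short of the likeness asked of equal numbers, so these blocked counts are conditional too. For Scd1 the log2 difference from DMSO was 0.61 at 50 µM and 0.07 at 10 µM, for Hmgcs1 0.36 and -0.02, and for Txnip -0.49 and -0.03. The median of the 21 sterol enzymes was 0.21 at 50 µM and -0.03 at 10 µM.

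The same contrast at other times used libraries of its own. Here too single libraries went against the mix of sexes: at 3 h replicate 2 of both doses had no Y-linked reads and 10 µM replicate 1 had 1.51 CPM of Xist, and at 48 h 10 µM replicate 4 and 50 µM replicate 5 had 1.11 and 0.119 CPM of Xist. At 3 h edgeR called 0 of 16702 genes without and with the block (0%), with 737 and 726 at an unadjusted p below 0.05, while DESeq2 called 8 and limma-voom 0. At 48 h it called 72 higher (0.436%) and 80 lower (0.485%) without the block, and 149 higher (0.903%) and 179 lower (1.08%) with it. The likeness of equal numbers was not checked at 3 or 48 h, so these blocked counts are conditional too. Leaving out 10 µM replicate 1 took the unblocked count from 152 to 88, leaving out 50 µM replicate 3 gave 97, and leaving out 50 µM replicate 4 gave 93. Leaving out the libraries low in Xist gave 146 (10 µM replicate 4) and 165 (50 µM replicate 5). Of the 98 genes called higher at 24 h with the block, 97 had a difference above 0 at 48 h, where 37 were called without the block, 37.8% of the 98 and 51.4% of the 72. Of the 83 called lower 80 lay below 0 at 48 h, and 20 were called there, 24.1% of the 83 and 25% of the 80. At 3 h 78 of the 98 and 61 of the 82 tested kept the sign, with median differences of 0.07 and -0.06. Over all genes tested, 50.8% lay above and 49.2% below 0 at 3 h, and 49% above and 51% below at 48 h.

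Sterol enzymes passed at 48 h without the block: 12 of 21 were called higher, with a median of 0.38, against 0.11 and 0 called at 3 h. Insig1 was higher by 0.52 ± 0.068 at 48 h (adjusted p = 0.000963), Dhcr7 by 0.50 ± 0.079 (0.00389), Hmgcs1 by 0.51 ± 0.079 (0.00673) and Scd1 by 0.71 ± 0.072 (0.000244). Csf1r fell by 0.66 ± 0.098 at 48 h (adjusted p = 0.00202), with 3 of 18 macrophage genes called lower. Whether the dose difference itself changed between times was tested as an interaction by edgeR over the 30 libraries of both doses. No gene passed for 24 against 3 h or for 48 against 24 h without the block (0 each, with 681 and 475 at an unadjusted p below 0.05). With the block it was 0 each as well. That block took an equal replicate number as shared across the times, which was not checked. The other count tools were not run on the interaction. The sterol medians at 3, 24 and 48 h are therefore values side by side, with no difference between times called.

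**Figure D4:**
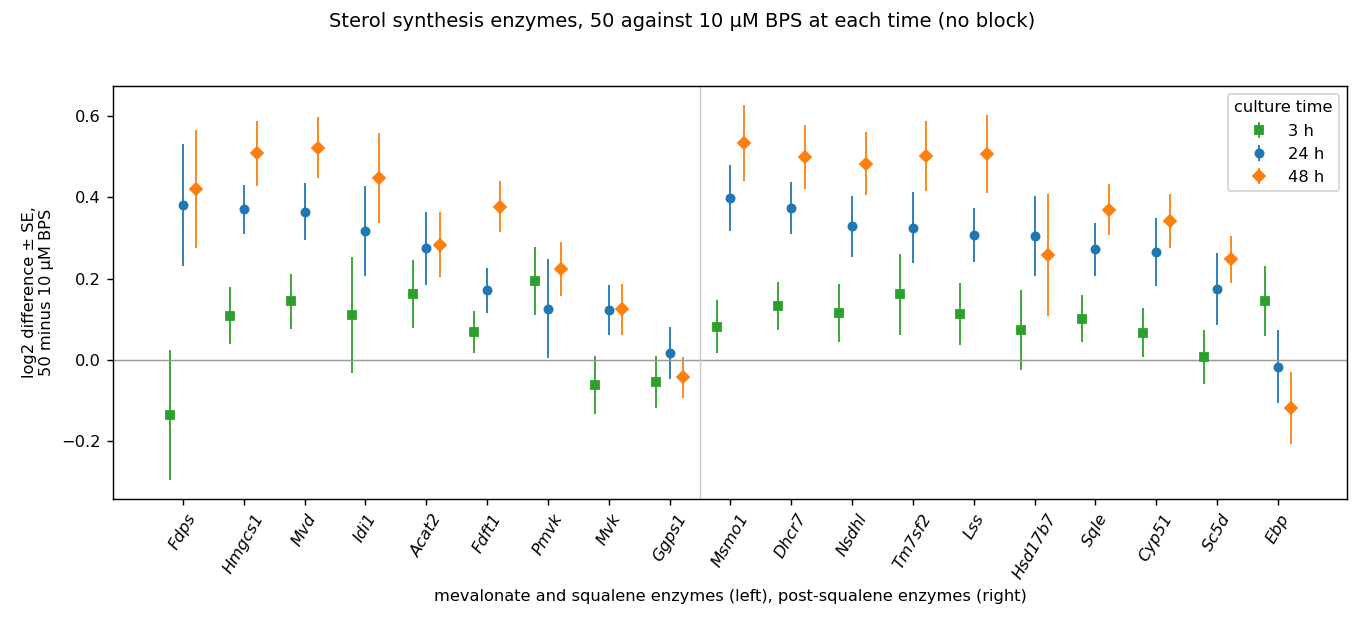
Log2 difference ± SE of 50 minus 10 µM BPS without the block (y axis) for 19 of the 21 sterol synthesis enzymes (x axis; mevalonate and squalene enzymes left, post-squalene enzymes right) at 3, 24 and 48 h. Most points at 24 and 48 h lie above 0 (medians over the 21 enzymes 0.31 and 0.38), those at 3 h lie nearer to it (median 0.11), and Ggps1 and Ebp lie near or below 0.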

How the data were processed

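Poly-A RNA libraries of 9 groups (3 treatments at 3 times, 5 libraries each) were analysed. Per the submitters' processing notes the build was mm10 and the tools included STAR 2.5, HTSeq 0.6.1, CASAVA 1.8 and DESeq2, with no role given for each and no options or annotation release. The deposited tables hold raw read counts per gene and library, per the file headers, with no normalisation by the authors, and were used as they stand. Strand is not stated to be kept, so overlapping and antisense genes are uncertain. Genes missing from a table were set to 0. In the control libraries, which a second table also held, such genes had at most 1 read. For the BPS libraries, each in 1 table, this could not be seen. Of 435225 control counts repeated between tables, 0 differed, and 0 columns were unmapped.

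The main test was edgeR 4.0.16 (R 4.3.3): quasi-likelihood, two-sided, TMM scaling, filterByExpr, robust dispersion, on the 10 libraries of a comparison, with no block and Benjamini-Hochberg adjustment over all genes tested. A call is an adjusted p below 0.05. The SE came from the log2 difference and the F statistic. CPM used TMM factors over the 45 libraries. Alternatives were the replicate block, DESeq2 1.42.0, limma-voom (limma 3.58.1), DESeq2 size factors, no low-count filter, fits on 15 or 45 libraries and each library left out. The fits were tested on counts simulated without a replicate effect, which cannot show whether the replicate block is apt here.

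Gene lists (45) are described by counts and medians, without a set test. The rule named the 15 largest rises and falls among calls with a mean of at least 1 CPM and no gene model name, up to 3 calls per list, a panel of 20 genes and, with fewer than 10 calls, the 15 smallest p as not passing. With 0 calls it was applied to the blocked calls as well, after these were seen. Other list members are named to complete a list. Some genes that the rule or a list names are not reported here, but they stay in the counts and medians. The comparison and the lists were chosen with earlier results of these data known. The Y-linked covariate, the blocked fits under other settings, the removal of whole replicate numbers and a further check of pairing were also chosen after results were seen. Depth was 15.2 to 23.1 M reads, and 3 reads, the floor for a level of 0, equal 0.13 to 0.197 CPM in these libraries (counting error only). Promoters came from RefSeq (GRCm38.p6) by gene symbol, and gene coordinates from the deposited tables.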

Additional observations from a re-analysis of the deposited data

Results flagged for a closer look

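In 160 groups of 5 libraries (80 named genes at 2 doses), 12 had a library whose gap to its neighbour took more than 0.71 of the group's range, Dixon's limit for 5 values; chance flags about 1 in 20 groups. At 50 µM, replicate 5 was highest for Cd36 (22.6 CPM), Esr1 (1.34 CPM) and Hmgcs1 (240 CPM) and lowest for Dkk3 (136 CPM) and Lgals7 (0.933 CPM). Replicate 1 was highest for Col10a1 (37.7 CPM), and replicate 2 was lowest for Osr2 (39.8 CPM) and Slc7a5 (77 CPM). At 10 µM, replicate 5 was lowest for Gdf5 (67.2 CPM), replicate 4 highest for Msr1 (4.53 CPM), replicate 2 lowest for Nsdhl (27.8 CPM) and replicate 1 lowest for Skil (77.1 CPM).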

How the results depend on the processing

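For 50 against 10 µM at 24 h (0 called), 2 genes were called with DESeq2 size factors, 36 with DESeq2, 41 without the low-count filter, 4 with 15 and 10 with 45 libraries in the fit, 181 with the replicate block, and 0 to 16 without 1 library or 1 replicate number (16 without number 5). The blocked count of 181 was 115 with DESeq2, 110 with limma-voom, 329 without the filter, 76 with the Y-linked level as covariate and 72 to 174 without 1 number. For 50 µM against DMSO (62) it was 273 with DESeq2, 104 with 45 libraries, 23 with limma-voom, 221 without the filter, 949 with the block and 2 to 315 without 1 library. At 3 h (0) it was 8 with DESeq2, 1 with 45 libraries, 13 without the filter and 0 to 2 without 1 library. At 48 h (152) it was 352 with DESeq2, 469 without the filter, 328 with the block and 88 to 203 without 1 library. The counts of 10 µM against DMSO and of both interactions were 0 under every setting run. Of the 80 named genes 66 passed with the block, 28 with DESeq2 and 31 without the filter. Many of the 80 were named because they passed with the block, so the 66 describes that choice and tests nothing. The sign of the difference changed under some setting for Ddit3, Cyp1a1, Col2a1, Acan, Runx2, Sp7 and Col1a1, none of them called. The median of the mevalonate list stayed between 0.229 and 0.328, that of the post-squalene list between 0.26 and 0.324 and that of the macrophage list between -0.365 and -0.266 over the edgeR settings run.

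Pairing by replicate number was checked by correlating the deviations of equal-numbered libraries of 50 and 10 µM from their group means in log2 CPM over the 16587 tested genes. For numbers 1 to 5 r was 0.151, 0.194, 0.183, 0.084 and 0.243, and each library correlated best with its own number. All 5 had to exceed 0.1, and number 4 did not, so the numbers were not taken as pairs. On log2(CPM + 1) without TMM over 12884 better expressed genes, a version chosen after seeing the data, r was 0.224, 0.371, 0.279, 0.168 and 0.521. The blocked calls had been seen before either check. For 50 µM and DMSO, r over the tested genes was 0.135, 0.074, 0.217, 0.088 and 0.251 for numbers 1 to 5. There number 2 was exceeded by an unequal pair (0.101). For 10 µM and DMSO r was 0.251, 0.139, 0.174, 0.086 and 0.261, and numbers 2 and 4 were exceeded by unequal pairs (0.175 and 0.11). Depth limits genes near the floor of 3 reads, and the cause of the other changes in count was not tested.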
